A study of Rattus norvegicus with 6 samples.

Results

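The genes described here are those of the glutathione and mercapturic acid pathway, 10 genes chosen by name for their step in it and found on the arrays by matching each probe's accession to a gene symbol. They are 10 of the 15645 genes with a symbol on the array, and 9 of them were among the 31179 genes tested. By step they are Gclc, Gclm and Gss for glutathione synthesis, Gsr for recycling, Gstm1, Gstp1 and Gstt1 for transfer onto foreign compounds, Ggt1 and Dpep1 for cleavage, and Nat8 for N-acetylation.

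Glutathione is a small peptide of glutamate, cysteine and glycine that cells use against oxidants and to tag reactive compounds for removal. A glutathione transferase joins it to such a compound, enzymes on the brush border of the kidney's proximal tubule then strip away its glutamate and glycine, and the remaining cysteine conjugate is acetylated and leaves in urine as a mercapturic acid. The renal cortex is rich in the cleaving enzymes, which also let the tubule take back glutathione's amino acids from filtrate.

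The study compared renal cortex of 6 male Sprague-Dawley rats of the Crl:CD(SD) stock, 5 weeks old when bought. After 4 weeks of dosing there were 3 rats given benzyl acetate at 1000 mg/kg/day and 3 rats given corn oil as vehicle, described as biological replicates, with no genetic change in either group. Benzyl acetate is a fragrance ester that the body hydrolyses to benzyl alcohol and excretes mostly as hippuric acid, with benzylmercapturic acid as a minor urinary product. Total RNA of each rat was labelled with the green dye Cy3 and read on its own 1-colour Agilent array.

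A level here is the log2 of a probe's background-subtracted signal minus that array's 75th percentile over 61537 probes, so 0 is the 75th percentile of the array and a step of 1 is 2-fold. Because each probe binds with its own strength, levels are compared between arrays for 1 probe and never between genes. A difference is the mean level with benzyl acetate minus the mean level with vehicle, and it is called a change when limma's p, adjusted by the Benjamini-Hochberg method over all genes tested, is under 0.05.

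Between 69.0% and 69.8% of probes were well above background on the benzyl acetate arrays, and between 70.5% and 72.0% on the vehicle arrays. The summed levels of 8 proximal tubule markers on a linear scale ran from 1407 to 1520 with benzyl acetate and from 1373 to 1416 with vehicle, and all 8 were well above background on all 6 arrays. Each sum is compared only between arrays and mostly follows its brightest probes. A dimmer marker can therefore vary without showing in it, as did Slc7a13 among these 8, which ranged 7.50-fold. The sums of other cell types were less even: 4 collecting duct markers summed to 171 to 214 with benzyl acetate and 241 to 277 with vehicle, and 2 thick ascending limb markers to 264 to 288 with benzyl acetate and 199 to 379 with vehicle. The 5 T and NK cell markers summed to 1.59 to 1.90 with benzyl acetate, and to 1.92, 2.04 and 4.30 with vehicle, the highest in vehicle replicate 3. Distal tubule markers (3, of which Pvalb was not well above background on any array) summed to 21.5 to 24.6 with benzyl acetate and 24.8 to 28.3 with vehicle. Podocyte markers (3) summed to 29.0 to 37.2 with benzyl acetate and 27.5 to 33.9 with vehicle, and macrophage markers (4, with Cd163 not well above background on any array) to 59.7 to 91.8 with benzyl acetate and 72.2 to 81.9 with vehicle. Adipocyte markers (2 with a probe) summed to 0.818 to 1.09 with benzyl acetate and 0.631 to 0.956 with vehicle. That sum was mostly Adipoq, and the 2 markers went opposite ways, with differences of 0.34 for Adipoq and -2.94 for Fabp4. Fabp4 was well above background on 3 vehicle arrays and 0 benzyl acetate arrays, with a limma adjusted p of 0.670. It thus entered the test through the vehicle group alone, and the size of its difference rests on benzyl acetate signals near background. The 1 red blood cell precursor marker with a probe had 1.72 to 2.05 with benzyl acetate and 1.58 to 2.35 with vehicle. The part of these cell types in the differences below was not tested, and in such bulk tissue fewer cells of a type and less RNA per cell cannot be told apart.

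No gene of the pathway passed the test with benzyl acetate: 0 of the 9 tested genes were called, against a background of 0% of all 31179 genes, of which 0 were called in either direction. At an unadjusted p under 0.05, limma counted 1191 genes as higher (3.82%) and 910 as lower (2.92%), or 2101 in either direction (6.74%). Scaling each array to its median instead gave 829 genes higher and 1276 lower. Among the 9 genes 1, Gstm1, was higher at that unadjusted p and 0 were lower. Gstm1 was also the only one of the 9 whose benzyl acetate arrays all lay on 1 side of the vehicle arrays, above them, which held for 7.5% of all genes (12.8% on either side). The 9 differences had a median of 0.03, beside 0.01 over all genes tested, with 5 above 0 and 4 below. The synthesis genes and Ggt1 were lowest on replicate 3 of each group, and Gclc varied by as much as 5.93-fold among rats given the same corn oil.

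**Figure D1:**
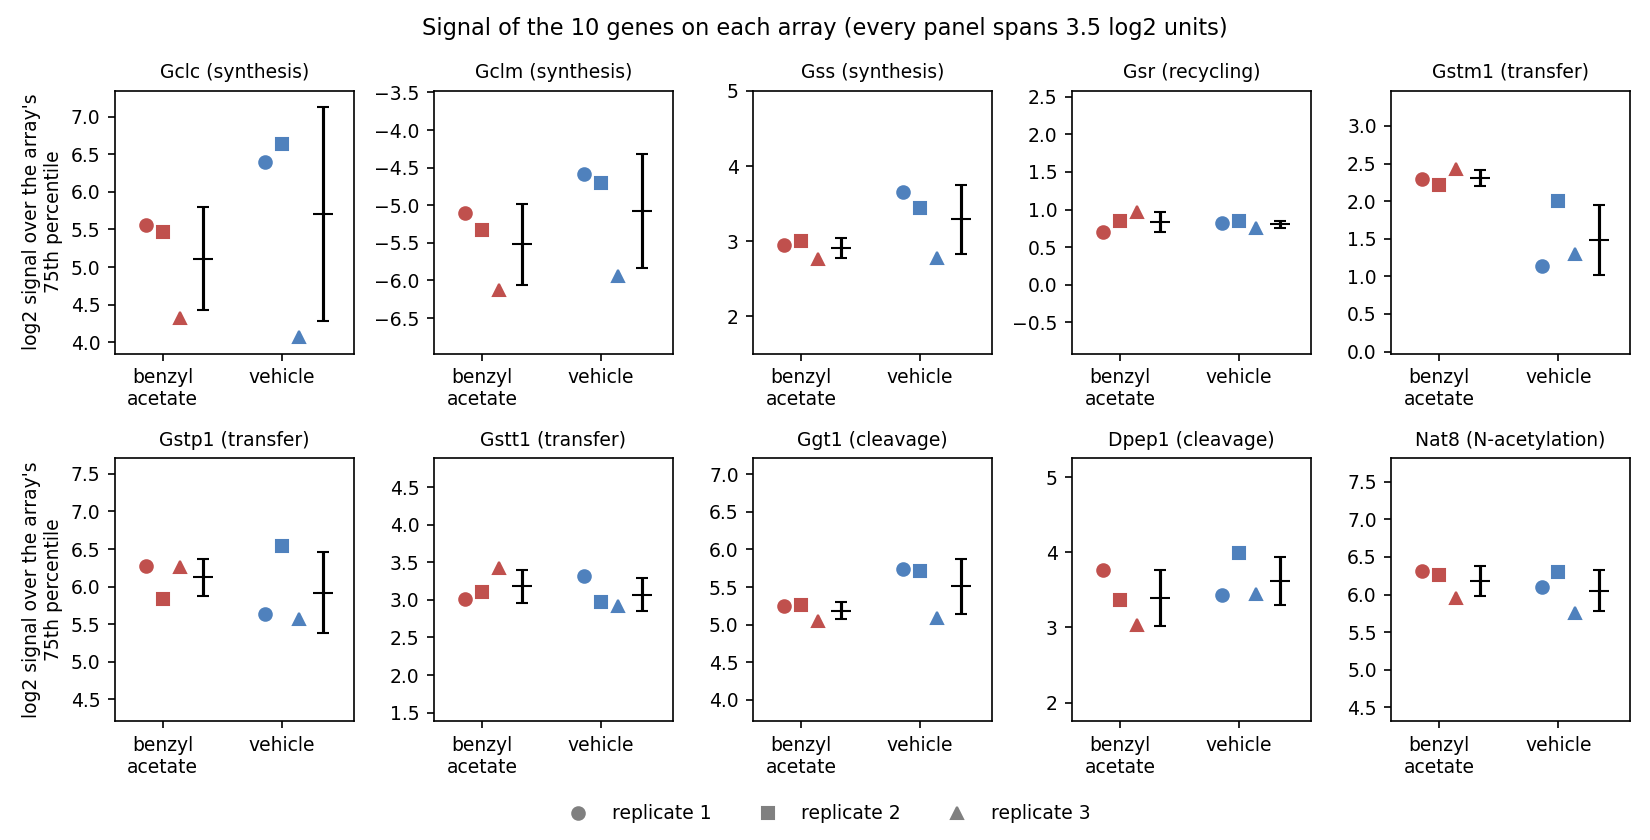
Levels of the 10 genes on each array, as log2 signal over the array's 75th percentile (vertical axis, 3.5 log2 units in every panel), with benzyl acetate left of vehicle, 1 point per rat, and the group mean ± SD beside the points. Gstm1 is the only panel of a tested gene where the 3 benzyl acetate points, 2.22 to 2.42, all sit above the 3 vehicle points, 1.14 to 2.01, and in the Gclc panel replicate 3 is the low point of both groups.

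Gclc encodes the catalytic subunit of glutamate-cysteine ligase, the rate-limiting enzyme of glutathione synthesis, and Gclm encodes its modifier subunit, which raises the enzyme's affinity for glutamate and its resistance to feedback inhibition. The bases just before the annotated starts of both genes are shown because these subunits had the widest spread among the pathway's genes, with that of Gstp1 as a contrast that lacked their array pattern. They are 250 bases long, in 5′ to 3′ direction, from RefSeq's GRCr8 assembly, at chr8:87510226-87510475 (plus strand) for Gclc, chr2:213031885-213032134 (plus strand) for Gclm and chr1:210769706-210769955 (minus strand) for Gstp1. Capitals mark a match on either strand to TGACNNNGC, the core of the antioxidant response element, through which the transcription factor Nrf2 acts.
Gclc: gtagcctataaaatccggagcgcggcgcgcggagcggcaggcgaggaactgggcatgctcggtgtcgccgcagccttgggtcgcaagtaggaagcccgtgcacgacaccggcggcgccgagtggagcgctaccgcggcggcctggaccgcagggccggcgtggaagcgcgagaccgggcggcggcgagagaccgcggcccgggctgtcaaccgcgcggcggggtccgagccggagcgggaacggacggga
Gclm: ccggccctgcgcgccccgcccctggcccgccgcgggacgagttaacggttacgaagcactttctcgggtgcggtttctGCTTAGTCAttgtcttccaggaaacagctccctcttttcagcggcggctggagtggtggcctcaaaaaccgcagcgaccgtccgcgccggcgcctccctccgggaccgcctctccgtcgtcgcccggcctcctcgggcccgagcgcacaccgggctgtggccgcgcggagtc
Gstp1: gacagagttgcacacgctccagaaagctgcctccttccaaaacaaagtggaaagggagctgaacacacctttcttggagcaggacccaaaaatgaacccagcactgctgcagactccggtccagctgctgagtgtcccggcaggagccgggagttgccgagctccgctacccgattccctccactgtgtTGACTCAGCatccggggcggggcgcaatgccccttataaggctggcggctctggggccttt

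The Gclm match, GCTTAGTCA, lies on the opposite strand 172 to 164 bases before the start, and the Gstp1 match, TGACTCAGC, lies 61 to 53 bases before it and overlaps the AP-1 motif TGACTCA. Windows of 300 bases (250 before and 50 after the start) were listed for 8 of the 10 genes. The motif TGACNNNGC, searched on both strands, was in 3 of these 8, the last being Nat8 with TGACATGGC 224 to 216 bases before its start, and in 12.1% of all 33469 listed promoters. TGACTCA was in 1 of the 8 and in 4.63% of all. The Gclc window held no match, which says only that these letters are not in this stretch.

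Gclc had levels of 5.55, 5.46 and 4.32 with benzyl acetate, and of 6.40, 6.64 and 4.07 with vehicle. Replicate 3 was the lowest array of both groups, vehicle replicates 1 and 2 were the highest, and the groups overlapped. The means were 5.11 ± 0.69 with benzyl acetate and 5.70 ± 1.42 with vehicle (SD, n = 3 each), a difference of -0.59 (SE 0.75, 95% interval -2.43 to 1.24, limma adjusted p = 0.904, exact two-sided permutation p = 0.6, where 3 against 3 arrays cannot go below 0.1). Its spread within groups was above that of 99.2% of all genes tested. A second Gclc probe gave the same picture, with levels of 0.99, 0.95 and -0.40 with benzyl acetate and 1.97, 2.13 and -0.62 with vehicle, and a difference of -0.65. The Gclc difference depended on single rats: leaving out a vehicle rat gave -1.41 (replicate 3), -0.12 (replicate 2) or -0.24 (replicate 1), and leaving out benzyl acetate replicate 3 gave -0.19.

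Gclm was near the detection limit of its single probe and was not tested. It was well above background on 2 of 3 arrays in each group and not on replicate 3 of either. Its processed signals were 28.7, 24.7 and 12.6 units with benzyl acetate and 42.0, 40.4 and 17.2 units with vehicle, or levels of -5.11, -5.33 and -6.13 with benzyl acetate and -4.58, -4.70 and -5.94 with vehicle. Here too replicate 3 was lowest in both groups and vehicle replicates 1 and 2 highest. In a limma fit without the filter on dim probes the difference was -0.45 (SE 0.46, 95% interval -1.60 to 0.71, adjusted p = 0.795), and the exact permutation p was 0.5.

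Gss encodes glutathione synthetase, which adds glycine to complete the peptide. Its levels were 2.96, 3.01 and 2.76 with benzyl acetate and 3.66, 3.44 and 2.78 with vehicle. Vehicle replicates 1 and 2 stood above the benzyl acetate arrays and vehicle replicate 3 lay among them. The means were 2.91 ± 0.13 with benzyl acetate and 3.29 ± 0.46 with vehicle (SD, n = 3 each), and the difference was -0.38 (SE 0.23, 95% interval -0.95 to 0.19, limma adjusted p = 0.800, exact permutation p = 0.3). It was -0.64 without vehicle replicate 3 and -0.20 without vehicle replicate 1.

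Gsr encodes glutathione reductase, which returns oxidised glutathione to its reduced form with NADPH. Its levels were among the steadiest of the 10, at 0.70, 0.85 and 0.96 with benzyl acetate and 0.82, 0.84 and 0.75 with vehicle. The groups overlapped, and all 6 arrays lay within 1.20-fold. The difference was 0.03 (SE 0.088, 95% interval -0.18 to 0.25, limma adjusted p = 0.965, exact permutation p = 0.8), so its interval covered 0.881- to 1.19-fold. Leaving out benzyl acetate replicate 3 turned it to -0.03.

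The transferases are families named by class, and Gstm1, Gstp1 and Gstt1 are members of the mu, pi and theta classes. Gstm1 had levels of 2.29, 2.22 and 2.42 with benzyl acetate, and of 1.14, 2.01 and 1.30 with vehicle. All 3 benzyl acetate arrays were above all 3 vehicle arrays, though vehicle replicate 2 was close to them, and the vehicle rats were the more spread out. The means were 2.31 ± 0.10 with benzyl acetate and 1.48 ± 0.46 with vehicle (SD, n = 3 each), a difference of 0.83 (SE 0.23, 95% interval 0.26 to 1.40), or 1.78-fold (1.20 to 2.63). The exact permutation p was 0.1, the smallest the design allows. The unadjusted limma p was 0.0118 and the adjusted p 0.671, so the difference did not pass. It stayed above 0 under all 20 alternatives tried, between 0.66 and 1.09, with adjusted p-values of 0.261 to 0.863. As the groups did not overlap, leaving out any array could not turn its sign. Several other settings left this difference unchanged, so the count of alternatives adds no support. Genes of the mu class are alike in sequence, and a probe of one may take up signal of another.

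Gstp1 had levels of 6.27, 5.84 and 6.26 with benzyl acetate and 5.64, 6.54 and 5.58 with vehicle. Vehicle replicate 2 was the highest array of all and the other 2 vehicle arrays the lowest. The difference was 0.21 (SE 0.29, 95% interval -0.50 to 0.91, limma adjusted p = 0.917, exact permutation p = 0.8), and the other 2 probes of the gene gave 0.20 and 0.02. It was 0.52 when vehicle replicate 2 was left out, and 0.03 when replicate 3 of that group was.

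Gstt1 had levels of 3.01, 3.10 and 3.43 with benzyl acetate and 3.32, 2.97 and 2.91 with vehicle. The ranges overlapped, with the highest array in the benzyl acetate group and the lowest in the vehicle group. The difference was 0.11 (SE 0.16, 95% interval -0.28 to 0.50, limma adjusted p = 0.918, exact permutation p = 0.5), and it became -0.01 with benzyl acetate replicate 3 left out, and 0.24 with vehicle replicate 1 left out.

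Ggt1 encodes gamma-glutamyltransferase 1, which removes glutamate from glutathione and its conjugates on the outer face of the brush border. Its levels were 5.25, 5.26 and 5.06 with benzyl acetate and 5.73, 5.71 and 5.09 with vehicle. As with Gss, vehicle replicates 1 and 2 stood above every benzyl acetate array and vehicle replicate 3 among them. The means were 5.19 ± 0.11 with benzyl acetate and 5.51 ± 0.37 with vehicle (SD, n = 3 each), and the difference was -0.33 (SE 0.19, 95% interval -0.79 to 0.14, limma adjusted p = 0.793, exact permutation p = 0.3). It was -0.54 without vehicle replicate 3 and -0.21 without vehicle replicate 1.

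Dpep1 encodes the membrane dipeptidase that splits the resulting cysteinylglycine conjugates. Its levels were 3.77, 3.37 and 3.03 with benzyl acetate and 3.43, 3.99 and 3.44 with vehicle. The lowest array was benzyl acetate replicate 3, the highest vehicle replicate 2, and the groups overlapped. The difference was -0.23 (SE 0.24, 95% interval -0.81 to 0.35, limma adjusted p = 0.880, exact permutation p = 0.4). It came to -0.42 with benzyl acetate replicate 1 left out and to -0.05 with vehicle replicate 2 left out.

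Nat8 encodes the cysteine-S-conjugate N-acetyltransferase that makes the mercapturic acid. Its levels were 6.32, 6.26 and 5.95 with benzyl acetate and 6.10, 6.30 and 5.76 with vehicle. Replicate 3 was again the lowest array of both groups, by a smaller margin than for Gclc, and the groups overlapped. The difference was 0.12 (SE 0.17, 95% interval -0.30 to 0.54, limma adjusted p = 0.917, exact permutation p = 0.6). Without vehicle replicate 3 it was -0.03, and without vehicle replicate 2 it was 0.25.

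**Figure D2:**
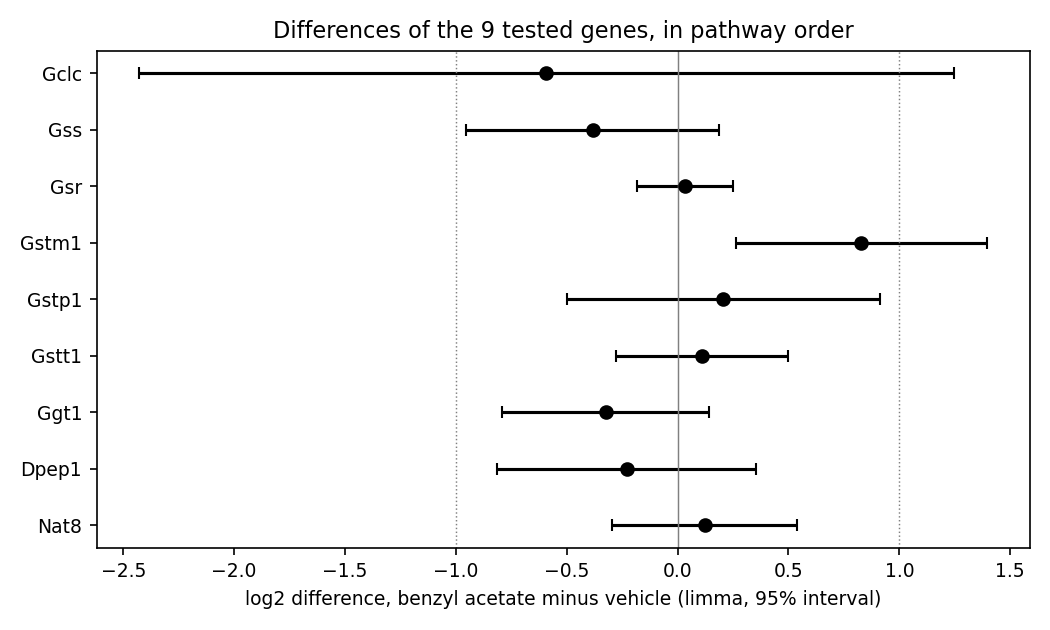
Difference of each of the 9 tested genes in pathway order, as log2 benzyl acetate minus vehicle (horizontal axis) from limma, with bars for the 95% interval and dotted lines at 2-fold. The Gstm1 interval, 0.26 to 1.40, is the only one that leaves out 0, and the Gclc interval runs from -2.43 to 1.24.

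By step, the 2 tested synthesis genes and the 2 cleavage genes had differences below 0, and Gsr, the 3 transferases and Nat8 had differences above 0, none of which passed. Leaving out 1 rat turned the sign for Gsr, Gstt1 and Nat8 and for none of the others, and brought Gstp1 to 0.03 and Dpep1 to -0.05. Intervals of 3 of the 9 genes, Gsr, Gstt1 and Nat8, lay inside 1.5-fold, beside 73.8% of all genes tested, and those of 7 lay inside 2-fold, beside 91.5%. The 2 genes whose interval reached past 2-fold were Gclc and Gstm1. The spread within groups was above the median of all genes for 8 of the 9, the exception being Gsr.

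Much of the spread of the synthesis genes lay between rats of the same group, a pattern noticed after the values were seen. Replicate 3 was lowest of its group in both groups for 4 of the 9 tested genes, Gclc, Gss, Ggt1 and Nat8, and for the untested Gclm, where 9.45% of all genes tested showed this. It was so too for 12 of the 72 other tested genes of glutathione metabolism listed below. These were 6 of 8 for N-acetylation, deacylation and beta-lyase, 3 of 12 for breakdown and 3 of 7 for cysteine and methionine supply. The labels do not say that replicate numbers pair the rats, so benzyl acetate replicate 3 and vehicle replicate 3 are known to share only a number. Over the 6 arrays Pearson's r was 0.906 between Gclc and Gss, 0.936 between Gclc and Ggt1, and 0.985 between Gss and Ggt1. It was -0.108 between Gclc and Gstm1 and 0.732 between Gstm1 and Gstp1. These are descriptions over 6 arrays that share their scaling, and they take in the difference between groups as well.

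The same arrays stood out for a marker of the straight part of the proximal tubule. Slc7a13, which encodes a cystine and acidic amino acid transporter there, had levels of 4.62, 4.47 and 2.74 with benzyl acetate and 5.51, 5.54 and 2.63 with vehicle, a 7.50-fold range with overlapping groups and a difference of -0.62 (95% interval -2.91 to 1.67, limma adjusted p = 0.926). Its spread within groups was above that of 99.5% of all genes tested. The other 7 proximal tubule markers varied little across the 6 arrays, by 1.09- to 1.34-fold each. Of these the endocytic receptor Lrp2 had levels of 6.56, 6.52 and 6.50 with benzyl acetate and 6.53, 6.52 and 6.62 with vehicle. Both thick ascending limb markers were lowest on vehicle replicate 3, where Umod had a level of 7.54, against 7.97 to 8.10 on the benzyl acetate arrays and 8.33 and 8.47 on the other 2 vehicle arrays. The log2 signal of the Gapdh control probe near the 3′ end minus that of the probe near the 5′ end is a measure of RNA integrity. It was 2.62 on benzyl acetate replicate 3, the highest, and 2.40 on vehicle replicate 3, where the other 4 arrays had 2.37 to 2.44. Repeated control spots varied by 8.0% (median coefficient of variation) on benzyl acetate replicate 3 and 8.1% on vehicle replicate 1. That value was 3.4% on vehicle replicate 3 and 2.7% to 3.2% on the remaining arrays. Benzyl acetate replicate 3 also had the lowest 75th percentile of signal, 883 against 988 to 1057. What part cell composition, RNA quality or array quality had in this pattern was not tested.

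**Figure D3:**
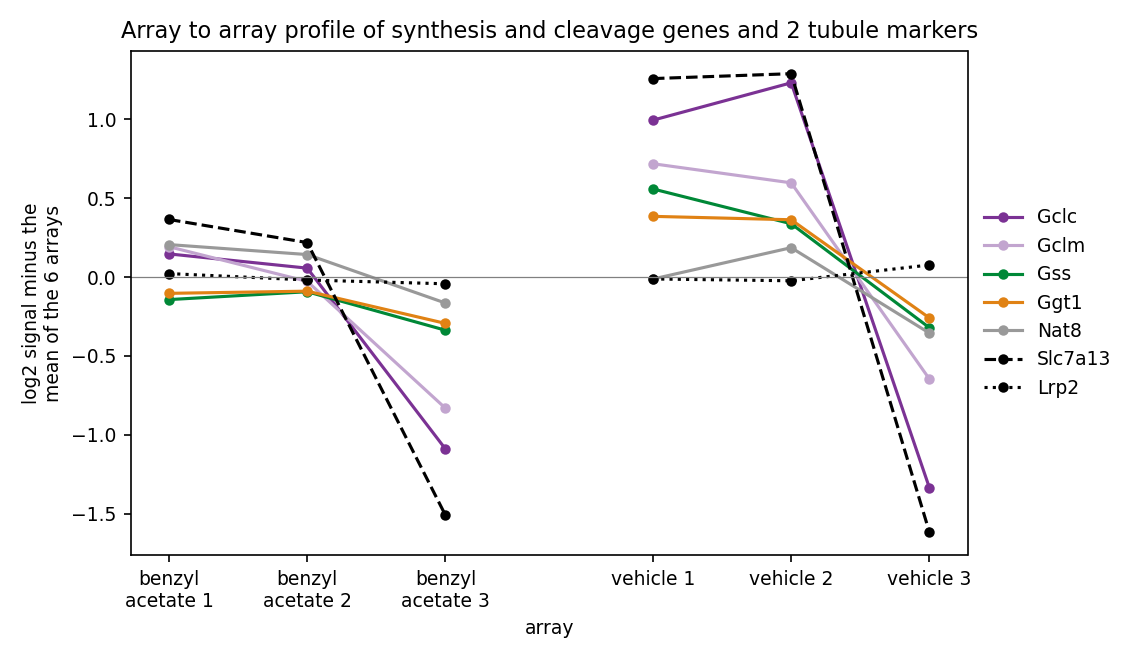
Level on each array minus the gene's mean over the 6 arrays (vertical axis, log2) for 5 genes of the pathway and for the proximal tubule markers Slc7a13 and Lrp2, with the benzyl acetate arrays left of the vehicle arrays. Lines join the points of 1 gene and carry no order. Gclc, Gclm and Slc7a13 are lowest on replicate 3 of both groups, while Lrp2 stays between 6.50 and 6.62 on all 6 arrays.

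The genes with a symbol whose levels followed Gclc most closely were chosen after their values were seen, as the 5 of highest r among those that ranged over at least 1 log2 unit. They were Mep1b, a brush border metalloprotease subunit, Slco1a1, an organic anion transporter, Hnmt, which methylates histamine, Slc7a12, and Slc7a13, with r between 0.997 and 0.992 over 6 arrays. Mep1b had levels of 2.79, 2.53 and 1.24 with benzyl acetate and 3.55, 3.78 and 0.86 with vehicle. Slco1a1 had levels of 0.36, 0.33 and -1.36 with benzyl acetate and 1.75, 1.74 and -1.66 with vehicle. Both were low on replicate 3 of each group and highest on vehicle replicates 1 and 2, as Gclc was. Of 31163 other genes, 133 had an r of at least 0.95 with Gclc. How many unrelated genes would reach such an r over 6 arrays was not tested, here or for the counts below.

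Gss and Ggt1 had the same 3 genes nearest to them by that measure: Cyp2c11, a cytochrome P450 known from the liver of male rats, Pgam2, the muscle form of phosphoglycerate mutase, and Clstn2. Cyp2c11 ranged 39.7-fold, with levels of -2.09, -1.84 and -3.52 with benzyl acetate and 1.79, 1.08 and -3.28 with vehicle. It was high on vehicle replicates 1 and 2 and low on the other 4 arrays. Over all genes, with or without a symbol and whatever their range, the number with an r of at least 0.95 was 99 for Gss, 69 for Gsr, 69 for Gstm1, 36 for Gstp1, 141 for Gstt1, 114 for Ggt1, 68 for Dpep1 and 36 for Nat8, so the count was highest for Gstt1. Among genes with a symbol that ranged over at least 1 log2 unit, the nearest to Gstm1 was Sema6d, a semaphorin, with an r of 0.944, and the nearest to Gstp1 was Celf3, an RNA-binding protein, with 0.988.

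Beyond the 10 genes, 83 other genes of glutathione metabolism were listed in 9 groups, of which 77 had a probe and 72 were tested. None passed in either direction. At an unadjusted p under 0.05 there were 2 higher and 5 lower, beside 3.82% and 2.92% of all genes, and the groups did not overlap for 4 genes higher and 6 lower, beside 7.5% and 5.31%. The 2 higher were Gstm3 and the phospholipid hydroperoxide peroxidase Gpx4, with differences of 0.71 and 0.19, and the 5 lower were Gsta2, Gsta4, Gsta5, Cndp2 and the peroxidase Gpx6, with differences of -0.40 to -0.21. The groups that did not overlap were those of Slc7a9, Gstz1, Gpx4 and the peroxiredoxin Prdx6 among the higher, and those of the same 5 genes and of Cbs, cystathionine beta-synthase, among the lower. Prdx6, Gpx4, Gpx6 and Cbs were named after their values were seen. The median difference of the 72 genes was 0.0097, and the intervals of 53 of the 72 lay inside 1.5-fold and of 67 inside 2-fold. The 6 listed genes with no probe matched were Gstt3, Glrx2, Nat8f3, Nat8f4, Slc25a40 and Pgd.

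**Figure D4:**
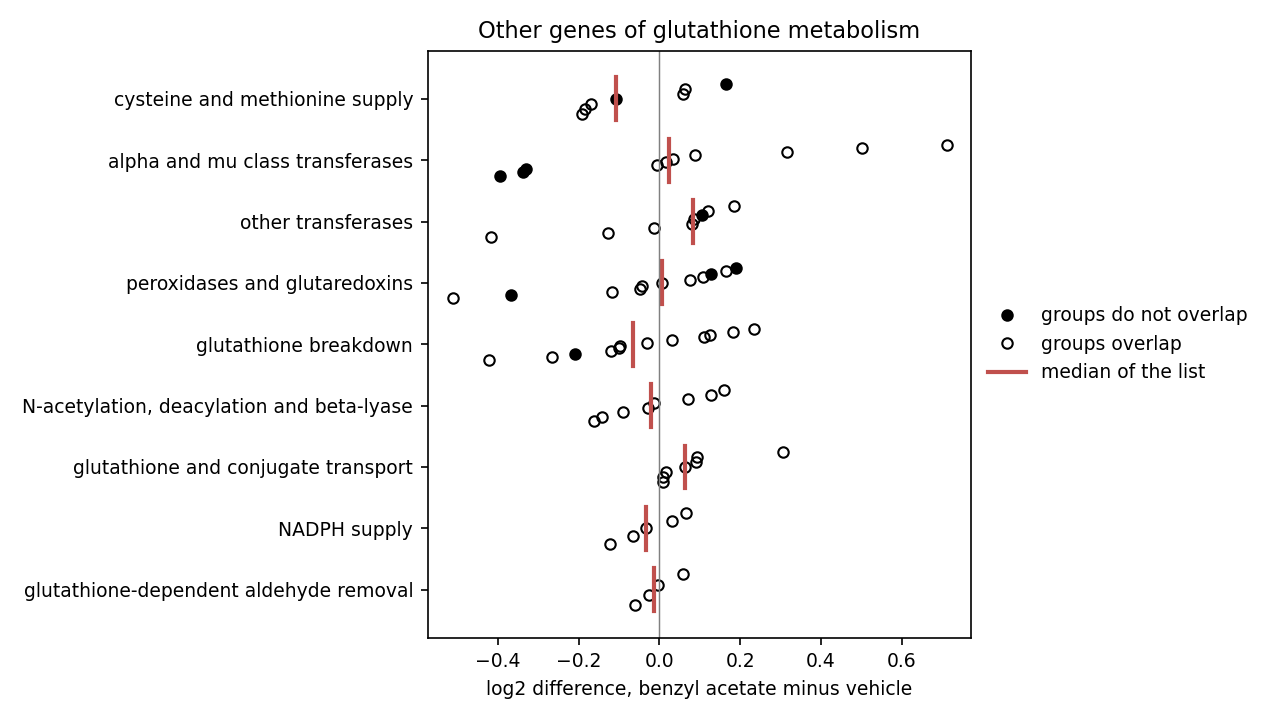
Differences of the 72 other tested genes of glutathione metabolism by list, as log2 benzyl acetate minus vehicle (horizontal axis), 1 point per gene, filled where the 3 benzyl acetate arrays all lie on 1 side of the 3 vehicle arrays, with a bar at the list's median. The list medians lie between -0.11 and 0.08. The alpha and mu class transferases run from -0.40 to 0.71, and the genes of the other lists from -0.51 to 0.31.

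Among the alpha class transferases, which conjugate glutathione and also reduce lipid hydroperoxides, 3 of 5 tested genes had benzyl acetate arrays all below the vehicle arrays, as did 5.31% of all genes. The class was singled out after the values were seen, so nothing is read from that count. Gsta2 had levels of 7.65, 7.75 and 7.73 with benzyl acetate and 8.29, 8.03 and 8.00 with vehicle, a difference of -0.40 (95% interval -0.64 to -0.15, limma adjusted p = 0.661). Gsta4 had levels of 6.30, 6.32 and 6.38 with benzyl acetate and 6.80, 6.62 and 6.58 with vehicle, a difference of -0.33 (95% interval -0.53 to -0.13, limma adjusted p = 0.661), the lowest unadjusted p of the 72. Gsta5 had levels of 7.78, 7.87 and 7.85 with benzyl acetate and 8.35, 8.06 and 8.10 with vehicle, a difference of -0.34 (95% interval -0.57 to -0.10, limma adjusted p = 0.675). In each the 3 benzyl acetate arrays lay close together and vehicle replicate 1 was the highest. Gsta1 and Gsta3 had differences of 0.02 and 0.03, whose sign turned in 9 and 4 of 20 alternatives, while those of Gsta2, Gsta4 and Gsta5 turned in none. As the groups of Gsta2, Gsta4 and Gsta5 did not overlap, leaving out any array or blocking on slide could not turn their sign. Several other settings leave a difference unchanged, so that count adds no support. Of the 3 tested Gsta3 probes the dimmest gave 0.52, so the probes of this gene ran from -0.0032 to 0.52. Gsta2 and Gsta5 are close copies, so their probes may share signal and they do not count as independent.

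In the mu class, 4 of the 5 tested genes other than Gstm1 had differences above 0, and none passed. Gstm3 was dim, with levels of -5.16, -4.42 and -4.44 with benzyl acetate and -5.75, -5.41 and -4.99 with vehicle, overlapping groups and a difference of 0.71 (95% interval 0.04 to 1.38, limma adjusted p = 0.727). Gstm7 had a difference of 0.50 and Gstm2 of 0.31, and Gstm5 and Gstm4 had 0.09 and -0.01. The Gstm3 difference depended on background handling and probe, at 0.23 under normexp and 0.46 with its other tested probe. The sign turned in none of the 20 alternatives for Gstm2, Gstm3 and Gstm7, though several of these leave a gene's difference unchanged. The 10 tested alpha and mu class genes together had a median of 0.03. The median was -0.33 over the 5 alpha class genes and 0.31 over the 5 mu class genes, a division into classes made after the values were seen.

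The medians of the remaining lists lay between -0.11 and 0.08, but some single genes differed more. The widest differences, named after their values were seen, were Gpx2 with -0.51, Ggt6 and Mgst2 with -0.42 each, and Abcc2 with 0.31. The groups of these genes overlapped, and Gpx2 ranged 4.02-fold among vehicle rats. In cysteine and methionine supply (7 tested, median -0.11), Slc3a1 and Slc7a9, the 2 subunits of the cystine transporter, had differences of -0.18 and 0.16. Among other transferases (8 tested, median 0.08), Mgst3, a microsomal enzyme, had -0.01 and Gstz1, which isomerises maleylacetoacetate, had 0.11. Peroxidases and glutaredoxins (11 tested, median 0.0054) included the glutathione peroxidases Gpx1 with 0.11 and Gpx3, which the proximal tubule secretes into plasma, with 0.08. In glutathione breakdown (12 tested, median -0.06), the dipeptidase Cndp2 had -0.21 with all benzyl acetate arrays below the vehicle arrays (limma adjusted p = 0.726), and Ggct, gamma-glutamylcyclotransferase, had 0.23, with probes that differed in sign. Of all these values only those of Slc7a9, Gstz1 and Cndp2 came from groups that did not overlap, and none passed.

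N-acetylation, deacylation and beta-lyase (8 tested, median -0.02) held Acy3, an aminoacylase that takes the acetyl group off mercapturic acids, with -0.03, and Nat8b, a relative of Nat8, with 0.07. Among glutathione and conjugate transport (7 tested, median 0.06), Slc25a39, which carries glutathione into mitochondria, had 0.09 and the efflux pump Abcg2 had 0.02. All 7 differences were above 0 with this scaling, as were those of 16824 of the 31179 genes, but those of Abcc1 (0.0092), Abcc3 (0.010) and Abcg2 turned to -0.020, -0.019 and -0.013 when arrays were scaled to their median, and probes of Abcc3 and Abcc5 differed in sign. NADPH supply (5 tested, median -0.03) included Tkt, transketolase, with 0.07 and Idh1, isocitrate dehydrogenase, with -0.07. In glutathione-dependent aldehyde removal (4 tested, median -0.01), Esd, an S-formylglutathione hydrolase, had -0.0026 and Hagh, glyoxalase II, had -0.06. No gene of these lists passed in either direction.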

How the data were processed

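Agilent Feature Extraction 10.7 made the deposited scanner tables, according to the submitters' processing notes. Their processed signal is an intensity on a linear scale, already background-subtracted, per the file headers. The software's 0 or 1 flags in the deposited tables mark outlying, saturated and well-above-background spots. A deposited value table, also intensity, matched the processed signal after division of each array by its own 75th percentile. Its values are therefore linear and not centred per gene, with column medians of 0.1148, 0.1118 and 0.1125 for benzyl acetate and 0.1102, 0.111 and 0.111 for vehicle.

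Levels were computed from the processed signal on the log2 scale by subtracting the 75th percentile of each array's non-control probes, without outlier spots and with no pseudocount. No spot was saturated. This scaling is relative and cannot show a shift that most transcripts share. A filter kept 42355 of 61537 probes, those detected in every rat of 1 group or both (3 of 3 arrays). Accessions of 28206 probes matched the RefSeq table of GRCr8, giving 15645 symbols, and 33331 probes kept the file's name. The tested probe of highest mean signal stood for a gene (36 listed genes had several, and 13 of them differed in sign). The arrays were designed on an older rat build, so no probe coordinates are given. Limma 3.58.1 in R 4.3.3 (lmFit and eBayes, two-sided, Benjamini-Hochberg adjustment) was fitted to 31179 genes over all 6 arrays, and single genes also had an exact permutation test. The number of arrays limits the precision. On data simulated for this comparison (31164 genes, 200 of them changed, 10 data sets) the fit recovered 28.3% of genes changed 1.5-fold, 60.4% changed 2-fold and 85.1% changed 4-fold, with 5.19% of calls false. Noise was drawn independently for each gene from a normal distribution with the SD measured on these arrays. Variation that genes share from rat to rat was thus left out, and these rates may not hold for the measured data. The changed genes were drawn from all genes, whose median SD within groups was 0.14. That of the 9 tested pathway genes was 0.33, so recovery of genes as spread as these would be lower.

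The 10 genes, the wider lists and the markers were chosen with earlier results of these data known. Named beside the 10 were the 2 genes of highest signal in each wider list and the 1 gene of lowest unadjusted p in each direction. The other alpha and mu class genes and the genes of widest difference in the remaining lists were picked after values were seen. So were the genes most like Gclc, Gss, Ggt1, Gstm1 and Gstp1, and the markers given singly. The fit was repeated with the deposited value table, with quantile, cyclic loess or median normalization, with normexp (offset 50, run on median spot signals), with the slide or the replicate number as a block, with array weights or a trended robust prior, with outlier spots kept, with other probe filters and choices among a gene's probes, and without each array in turn. Slide 1 held vehicle replicate 1 alone and slide 2 all others, so blocking on slide equals leaving that array out, and slide and rat cannot be told apart. No 2 arrays held identical signals.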

Additional observations from a re-analysis of the deposited data

How the results depend on the processing

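Under all 20 alternatives none of the 9 tested genes and none of the 72 wider genes was called, with a lowest adjusted p of 0.261, and 0 genes were called higher. Called lower were, outside these lists, 2 genes under normexp (lowest adjusted p 0.0189) and 2 without benzyl acetate replicate 1, so leaving out 1 array gave 0 to 2. The median difference of the 9 genes ran from -0.03 to 0.05 (-0.10 without the filter on dim probes, where Gclm joins them as the last of the 10 genes), and that of the wider genes from -0.03 to 0.04. At an unadjusted p under 0.05 the balance of 1191 higher and 910 lower became 829 higher and 1276 lower under median scaling, 1038 and 1033 with the replicate block, 1023 and 1051 under quantile, 1051 and 1091 under cyclic loess, 1553 and 738 under normexp, and 5483 and 1077 without the filter on dim probes; limma's lowest adjusted p over these fits was 0.0189.

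The labels give no pairing of same-numbered rats. Their deviations correlated at -0.110, 0.0068 and -0.0020, and a pair of different numbers reached 0.121. With so few rats these values cannot show whether rats were matched. With the replicate block 0 genes were called (lowest adjusted p 0.671), and the medians of the 9 and of the wider genes stayed at 0.03 and 0.0097.

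Single genes, none of them called, kept their sign in 557 comparisons with an alternative and reversed in 23. These comparisons are not independent, as the slide block repeats the fit without vehicle replicate 1 and several settings leave a gene's difference unchanged. Leaving out 1 array gave ranges of -0.030 to 0.10 for Gsr, -0.013 to 0.24 for Gstt1, -0.026 to 0.25 for Nat8, -0.052 to 0.025 for Mgst3, -0.15 to 0.094 for Acy3, -0.037 to 0.12 for Abcg2, -0.032 to 0.14 for Tkt, -0.30 to 0.12 for Idh1 and -0.045 to 0.043 for Esd. Outside these, Mgst3 was 0.023 with the mean of its probes and Ggct -0.13 with its probe of lowest signal. Acy3 was 0.0012 with array weights and Abcg2 -0.013 under median scaling. The slide block, which equals leaving out vehicle replicate 1, gave -0.037 for Abcg2 and 0.038 for Idh1. The cause of the reversals was not tested. Probes near background, such as those of Gclm and Gstm3, limit what can be said of those genes.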
